A study of Mus musculus with 3 samples.

Results

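The clustered replication-dependent histone genes of the mouse were described in RNA bound to chromatin of macrophages. They were taken as the genes annotated as protein-coding whose symbol begins with Hist1h, Hist2h, Hist3h or Hist4h. The rule gave 67 genes, of 55536 annotated genes and 22028 protein-coding genes. They comprised 6 H1, 18 H2A, 18 H2B, 12 H3 and 13 H4 genes, of which 54 belong to the Hist1 cluster on chromosome 13, 10 to Hist2 on chromosome 3, 2 to Hist3 on chromosome 11 and 1 to Hist4 on chromosome 6. A further 3 genes with such symbols are annotated as pseudogenes and were not counted.

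The libraries were total RNA-seq, depleted of ribosomal RNA, from the chromatin fraction of bone marrow-derived macrophages (BMDM) of C57BL/6J mice. All cells had received 100 ng/ml lipid A, the TLR4-activating part of lipopolysaccharide, for 12 h, were then kept without it for 12 h, and received 100 ng/ml again for 30 min. There was 1 group of 3 biological replicates with a shared donor identifier, so p-values measure only the spread between these samples, which may be technical. The age and sex of the mice were not collected, per the labels. Library input was 1 µg of RNA in replicate 1, 250 ng in replicate 2 and 500 ng in replicate 3, so input and replicate cannot be told apart. With no other group analysed here, no level below is a response to lipid A. All 9 macrophage markers were above 1 TPM (limma, adjusted p under 0.05), and of 21 lymphoid, granulocyte, erythroid, stromal and epithelial markers none passed in the gene table by that test. At an unadjusted p under 0.05 1 of the 21 did (Pecam1, at 1.14, 2.08 and 1.55 TPM), and 5 passed in the second transcript table.

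Replication-dependent histone genes supply the H2A, H2B, H3 and H4 of the nucleosome core and the linker histone H1 when DNA is copied. They have no introns in their canonical form, and their messages end in a conserved stem-loop in place of a poly(A) tail. The stem-loop is bound by SLBP and cut with the help of the U7 small nuclear RNA, and NPAT drives their transcription in S phase. Cells that have left the cell cycle rely on replacement histones such as H3.3, whose genes lie outside these clusters and make polyadenylated messages.

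The stem-loop is shown because it marks the point at which the canonical message ends, and thus which annotated transcripts run on beyond it. The annotated transcripts were searched on the sense strand for the histone stem-loop, a run of 16 bases that starts with GG, ends with CC and pairs 6 bases on either side of a loop of 4. It was found in 46 of 67 members (68.7%), against 23 of 21834 other protein-coding genes (0.105%). Those 23 include H2afx, a variant histone gene whose message can also end in this structure, and Trim17, which overlaps Hist3h2a. The forms are written as DNA, and capitals mark the loop. The first was found in 26 of the 54 members outside H4 (10 of 18 H2A, 8 of 18 H2B, 5 of 12 H3 and 3 of 6 H1 genes), the second in 7 H4 genes, the third in 6 members outside H4, the fourth in Hist1h4i and Hist2h4, and the fifth in Hist1h4b and Hist1h4j:
Form of Hist3h2a and Hist1h2bg: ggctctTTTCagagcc
H4 form of Hist1h4m and Hist1h4n: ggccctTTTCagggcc
Form of Hist1h3c and Hist1h2bk: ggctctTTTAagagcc
Form of Hist1h4i and Hist2h4: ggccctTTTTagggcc
Form of Hist1h4b and Hist1h4j: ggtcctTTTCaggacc
Hist2h2ac, Hist1h4a and Hist1h3g had a form each to themselves. No H4 gene had the form found in 26 members, and no gene of another class had any of the H4 forms above.

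The annotated transcripts differed in where they end. In 22 members the stem-loop lay within 60 bases of the transcript's end, in 24 the transcript ran further past it, 11 were annotated as coding sequence alone, and in 10 no match was found. The length annotated bears on the levels, because TPM divides reads by length. Hist1h1d is annotated as 7425 bases, of which 4884 follow the stem-loop, and Hist4h4 as 2863 bases, of which 2445 follow it. In Hist3h2a 1643 of 2146 bases follow it, whereas in Hist2h2aa2 and Hist1h4m only 35 and 3 bases do. Summed TPM of the members whose transcript ends near the stem-loop was 38.2, 78.8 and 58.9 in replicates 1, 2 and 3, and that of the members running past it was 34.0, 49.1 and 39.7.

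Promoter sequence differed by class in a way that divided H4 from the rest. RefSeq windows of 250 bases before to 50 after the start (GRCm38.p6, the assembly of which mm10 is the browser release) matched 61 members. CCAAT, on either strand, was in 52 of 61 (85.2%), against 37.4% of all 32851 promoters of that table. All 49 matched H1, H2A, H2B and H3 windows held it, and 3 of 12 H4 windows did. TATAAA was in 34 of 61 (55.7%), against 13.6% of all promoters. The octamer ATTTGCAT, known from H2B promoters as a site for OCT1, was in 13 of 61 (21.3%), against 1.74% of all promoters. Those 13 were 7 H2A and 6 H2B genes. Close neighbours on opposite strands share much of their windows, as Hist1h2ae and Hist1h2bg do. A single site can thus count for both genes, for this and the other motifs. GGTCC, the core of an element described in H4 promoters, was in 11 of 12 H4 windows and in 42.6% of members, against 45.5% of all promoters. None of these 4 motifs contains another, and a match is only a match of letters. The windows without CCAAT, all of H4 genes, had a median mean level of 4.49 TPM, and those with it 0.648 TPM. Medians with and without the motif were 0.972 and 0.643 TPM for TATAAA, 1.38 and 0.738 TPM for the octamer, and 0.957 and 0.653 TPM for GGTCC. Motif and class go together here, and the part of either in the levels was not tested.

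Stretches between the starts of 3 pairs of neighbours described below, and before the starts of Hist3h2a, the highest member, and Hist1h4i, an H4 gene with much sequence of its own, are shown to make these motifs visible. They were chosen after levels were seen and are not the highest genes of each class. Capitals mark the CCAAT motif, the TATA box motif and the octamer on either strand, and in Hist1h4i also GGTCC. The first 3 are whole intervals between 2 divergent genes and the last 2 are the 120 bases before a start. They lie at chr3:96220881-96221118 (minus strand, towards Hist2h2ac), chr13:23571221-23571395 (minus strand, towards Hist1h2ae), chr13:23574197-23574380 (plus strand, towards Hist1h2ad), chr11:58954565-58954684 (plus strand) and chr13:22041363-22041482 (minus strand):
Hist2h2be to Hist2h2ac: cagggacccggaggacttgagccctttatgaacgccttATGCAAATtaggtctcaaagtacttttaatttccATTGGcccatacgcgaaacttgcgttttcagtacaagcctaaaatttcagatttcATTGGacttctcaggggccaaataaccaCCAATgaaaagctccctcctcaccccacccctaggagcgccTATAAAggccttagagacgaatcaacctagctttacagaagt
Hist1h2bg to Hist1h2ae: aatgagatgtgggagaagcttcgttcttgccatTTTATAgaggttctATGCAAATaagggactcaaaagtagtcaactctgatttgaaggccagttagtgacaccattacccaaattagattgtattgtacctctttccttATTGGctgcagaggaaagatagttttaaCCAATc
Hist1h2bf to Hist1h2ad: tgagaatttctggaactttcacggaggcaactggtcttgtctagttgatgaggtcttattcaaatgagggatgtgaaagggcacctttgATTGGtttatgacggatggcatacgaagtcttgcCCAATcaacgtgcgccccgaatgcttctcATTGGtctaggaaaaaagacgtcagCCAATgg
Hist3h2a: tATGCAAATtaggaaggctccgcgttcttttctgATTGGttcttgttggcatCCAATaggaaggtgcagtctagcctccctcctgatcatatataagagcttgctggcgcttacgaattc
Hist1h4i: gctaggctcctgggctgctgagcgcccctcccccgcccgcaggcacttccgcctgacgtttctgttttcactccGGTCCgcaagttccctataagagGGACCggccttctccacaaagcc
The stretches of Hist2h2ac, Hist1h2ae and Hist3h2a hold the octamer, and Hist1h4i holds GGTCC on both strands and no CCAAT.

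Chromatin RNA of the members was low. They took 662, 1458 and 1020 expected counts of 12401783, 18317179 and 18164629 in replicates 1, 2 and 3, which is 0.00534% (exact 95% binomial interval 0.00494 to 0.00576), 0.00796% (0.00756 to 0.00838) and 0.00562% (0.00528 to 0.00597). These intervals cover counting error only. The median member had 0.54, 1.11 and 0.71 TPM in the 3 libraries, where TPM is abundance per effective length scaled to a fixed sum. Of 67 members, 7 were at 0 in every library, and 37 were above 0 in all 3.

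Levels were set against 1 TPM with a one-sided limma test of log2(TPM + 0.1), adjusted over the 24180 genes with a nonzero value. Of the 60 members tested, 15 were above 1 TPM, which is 25%. The share over all genes tested was 50.5%, and over protein-coding genes tested 61.1%. Relative to 1 TPM the median member tested stood at -0.54 log2 units, against 0.82 for all genes tested and 1.92 for protein-coding genes. By class, 7 of 13 H4, 5 of 15 H2A, 3 of 16 H2B, 0 of 10 H3 and 0 of 6 H1 genes tested passed. In the second transcript table, where 57.1% of all genes tested passed, the counts were 7 of 13 H4, 6 of 15 H2A, 6 of 17 H2B, 0 of 10 H3 and 0 of 6 H1 genes. At an unadjusted p under 0.05, 1 H3 gene (Hist1h3d) and 0 H1 genes passed by limma. On the CPM scale, against 1 CPM, 8 members passed, of which 4 were among the 15, and Hist1h1c was one of the others (limma adjusted p = 0.0405). The share over all genes tested was 51.4% on that scale, and over protein-coding genes tested 65.4%. In bulk RNA, fewer cells that transcribe these genes and less RNA per cell cannot be told apart.

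**Figure D1:**
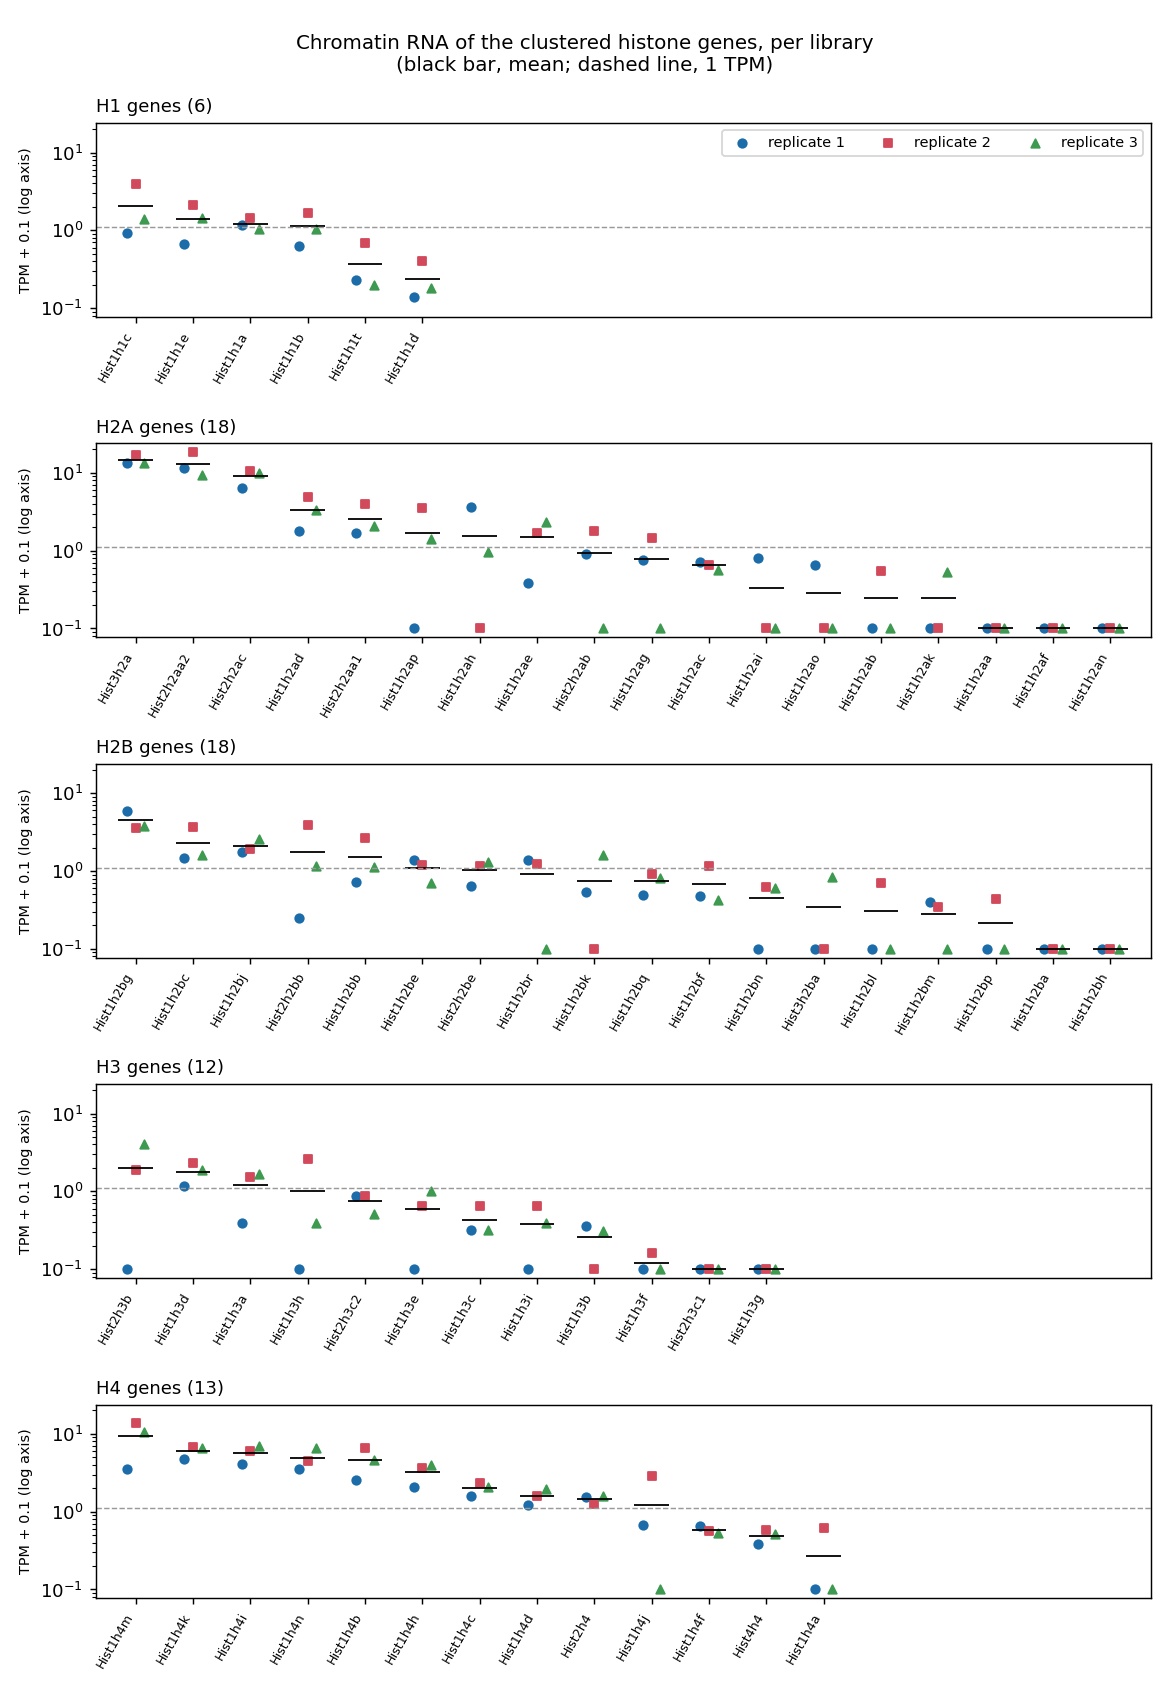
TPM + 0.1 on a log axis for each of the 67 clustered histone genes, by class and in order of mean, with 1 point per library, a black bar at the mean and a dashed line at 1 TPM. Hist3h2a and Hist2h2aa2 stand highest, at means of 14.5 and 13.0 TPM, and 7 genes lie at 0 in all 3 libraries.

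H2A, which pairs with H2B in the nucleosome, held the highest genes. Hist3h2a (chromosome 11, 58954685 to 58956830, plus strand) had 13.5, 16.9 and 13.1 TPM in replicates 1, 2 and 3, from 281, 507 and 370 expected counts. It was the highest member by mean, and it exceeded 1 TPM by 3.72 log2 units with an SE of 0.12 in all 3 libraries (limma adjusted p = 2.65e-06). It starts at the same base and on the same strand as Trim17, a ubiquitin ligase gene, whose TPM was 2.80, 3.32 and 3.04, and 32.1% of its stretches of 31 bases also occur in Trim17. The part of that overlap in the level of Hist3h2a was not tested. Without Hist3h2a the members took 0.00307%, 0.00519% and 0.00358% of expected counts, and the H2A sum averaged 34.9 TPM, against 49.4 TPM with it.

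Hist2h2aa2 (chromosome 3, 96239749 to 96240276, minus strand) had 11.5, 18.3 and 9.39 TPM, and its twin Hist2h2aa1 had 1.60, 3.87 and 1.99 TPM. Both are H2A genes of Hist2, and both were above 1 TPM (limma adjusted p = 2.52e-05 and 0.0150). All stretches of 31 bases of Hist2h2aa2 also lie in Hist2h2aa1, so the split between them is uncertain. Of those of Hist2h2aa1, 10.4% lie in no other member, but all lie in the antisense gene Gm20633. Throughout, such stretches were matched on either strand, so antisense genes count as sharing them. The interval deposited beside the value of Hist2h2aa1 ran over 0.0255 to 8.09 TPM in replicate 2. Each also overlaps an antisense gene, Gm20632 with 1.77, 1.5 and 1.62 TPM and Gm20633 with 1.54, 1.75 and 1.61 TPM. Whether counting used strand is not given in the sources used here, so reads of these partners cannot be told apart.

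Hist2h2ac, another H2A gene of Hist2, had 6.38, 10.5 and 9.91 TPM and exceeded 1 TPM by 3.01 log2 units with an SE of 0.18 (limma adjusted p = 2.90e-05). Replicate 1 was the lowest library for it. Hist1h2ad, at 1.70, 4.80 and 3.19 TPM, was the highest H2A gene of Hist1. The other H2A genes had means under 1.60 TPM, and Hist1h2aa, a testis H2A gene, was at 0 in every library together with Hist1h2af and Hist1h2an.

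The highest H2B genes were lower than the highest H2A genes. Hist1h2bg had 5.88, 3.49 and 3.74 TPM, Hist1h2bc 1.36, 3.61 and 1.51 TPM, and Hist1h2bj 1.67, 1.81 and 2.50 TPM. Hist1h2bg was highest in replicate 1 and Hist1h2bc in replicate 2, so these genes did not move together between libraries. All 3 were above 1 TPM (limma adjusted p = 0.000321, 0.0474 and 0.0134), and Hist1h2bc lost the call without any 1 of the replicates (adjusted p 0.0667 to 0.145), Hist1h2bj without replicate 3 (0.0866). On the CPM scale none of the 3 passed (limma adjusted p = 0.174, 0.0888 and 1.00). Hist2h2bb, the highest H2B gene of Hist2 by mean, had 0.15, 3.76 and 1.05 TPM and was not called above 1 TPM (limma adjusted p = 0.936). The other H2B genes had means of at most 1.41 TPM. Hist1h2ba, which encodes the testis form of H2B, and Hist1h2bh were at 0 in every library.

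H3 genes were the lowest of the core classes, with a median mean level of 0.407 TPM, against 0.645 TPM for H2B, 0.753 TPM for H2A and 1.90 TPM for H4. Hist2h3b had 0, 1.77 and 3.90 TPM, Hist1h3d 1.06, 2.18 and 1.76 TPM, and Hist1h3a 0.29, 1.43 and 1.56 TPM. All 3 were lowest in replicate 1, and none passed (limma adjusted p = 1.00, 0.0841 and 1.00). Without replicate 1 Hist1h3d was 0.91 log2 units above 1 TPM (limma adjusted p = 0.0392). Every stretch of 31 bases of Hist2h3b also lies in the antisense gene Gm20628, which had 0.95, 0.99 and 0.70 TPM. Hist1h3g and Hist2h3c1 were at 0 in every library, and all stretches of 31 bases of Hist2h3c1 also lie in Gm20634 on the same strand, which had 1.54, 2.32 and 1.53 TPM.

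Of 13 H4 genes 7 were above 1 TPM, or 53.8%, which is near the 50.5% of all genes tested and below the 61.1% of coding genes. No difference between classes was tested. Hist1h4m (chromosome 13, 21811746 to 21812147, plus strand) had 3.45, 13.7 and 10.6 TPM, Hist1h4k 4.62, 6.77 and 6.40 TPM, and Hist1h4i 3.95, 5.98 and 6.93 TPM. All 3 were lowest in replicate 1. They exceeded 1 TPM by 2.87, 2.44 and 2.34 log2 units (SE 0.40, 0.17 and 0.20), with limma adjusted p of 0.00105, 5.15e-05 and 0.000133. Hist1h4n, Hist1h4b, Hist1h4h and Hist1h4c also passed, with means of 4.81, 4.49, 3.13 and 1.90 TPM. Hist1h4c lost the call without replicate 2 or replicate 3 (limma adjusted p = 0.0589 and 0.0777). Hist1h4m lost it with no filter on low values (limma adjusted p = 0.0708) and on the CPM scale (0.568), where Hist1h4k was below 1 CPM.

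The H4 genes code for the same protein and share much of their sequence. In Hist1h4m 8.33% and in Hist1h4k 13.8% of the stretches of 31 bases are found in no other gene, while in Hist1h4i 64.4% are. Hist1h4k is annotated as coding sequence alone, with 312 bases, and rested on 5.38, 8.16 and 8.36 expected counts. Hist1h4i, at 21.8, 44.0 and 49.7 expected counts, is thus the one of these 3 with the most sequence of its own. Hist2h4, in the Hist2 cluster, had 1.44, 1.15 and 1.5 TPM and was not called above 1 TPM (limma adjusted p = 0.165), but passed on the CPM scale (0.0322).

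H1 genes encode the linker histone that binds DNA between nucleosomes. Hist1h1c (H1.2) had 0.83, 3.82 and 1.28 TPM, Hist1h1e (H1.4) 0.56, 2.03 and 1.34 TPM, and Hist1h1a (H1.1) 1.06, 1.32 and 0.95 TPM. All 6 H1 genes were highest in replicate 2, and none was above 1 TPM by the test (limma adjusted p = 0.207, 0.573 and 0.592 for the 3 named). Hist1h1e overlaps Hist1h2be on the same strand, so their split is uncertain. Hist1h1t, the testis form of H1, had 0.13, 0.58 and 0.10 TPM.

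Summed over genes, H2A and H4 took most of the level. The H2A sum was 41.8, 63.4 and 42.9 TPM in replicates 1, 2 and 3, the H4 sum 25.4, 50.1 and 45.02 TPM, and the H2B sum 14.3, 22.1 and 15.4 TPM. The H3 sum was 2.59, 10.3 and 9.55 TPM and the H1 sum 3.15, 9.63 and 4.70 TPM. H2A and H4 thus exceeded H2B, H3 and H1 in each of the 3 libraries, and H2A exceeded H4 in replicates 1 and 2 but not in replicate 3. In CPM, which does not divide by length, H4 was below H2B in replicate 1, at 8.71 against 9.10 CPM. Without Hist3h2a the mean H2A sum, 34.9 TPM, was below the mean H4 sum of 40.2 TPM, and in CPM it was 9.40, below the 9.85 CPM of H2B. As shares of the members' TPM these sums were 41.7% ± 5.78 for H2A, 33.2% ± 4.68 for H4, 14.6% ± 1.68 for H2B, 5.91% ± 2.65 for H3 and 4.60% ± 1.39 for H1 (SD, n = 3). In CPM they were 52.7% ± 4.59 for H2A, 17.9% ± 2.86 for H4, 15.6% ± 1.54 for H2B, 4.84% ± 1.51 for H3 and 8.94% ± 4.08 for H1 (SD, n = 3). In the second table H2B had 23.7% ± 2.10 of the members' TPM (SD, n = 3). The 4 core histones enter the nucleosome in equal number, and their chromatin RNA sums were not equal here. All members together had 87.2, 156 and 118 TPM.

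**Figure D2:**
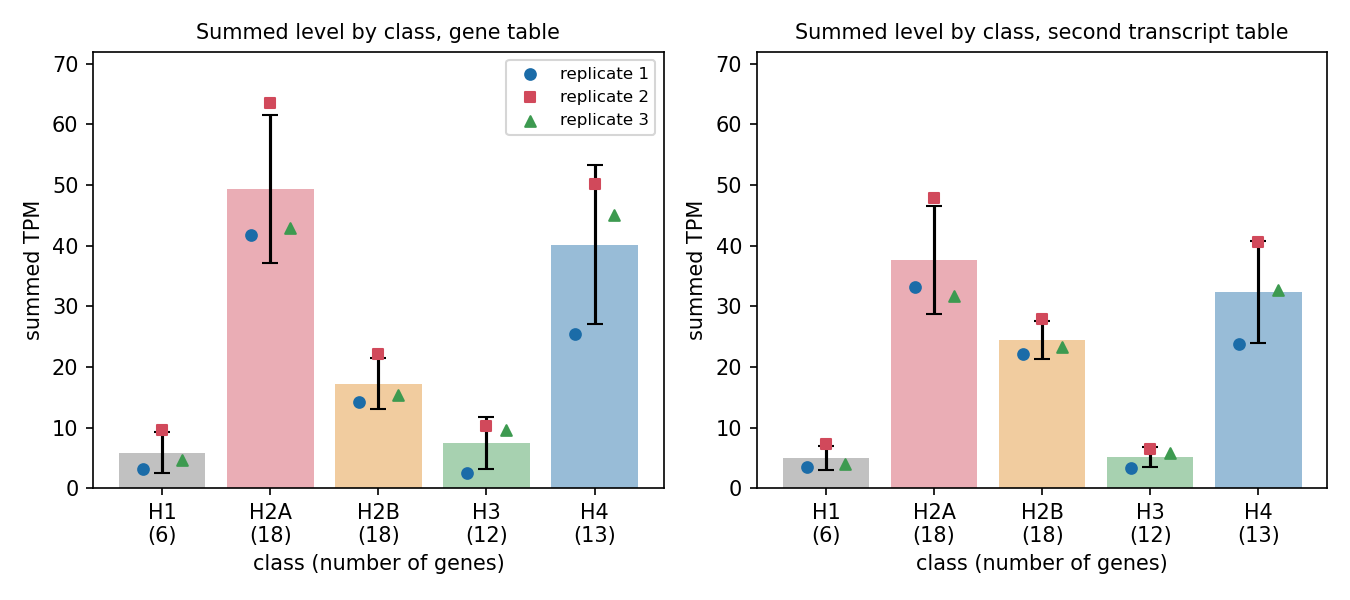
Summed TPM of each histone class in the gene table (left) and the second transcript table (right). Bars are means, error bars are SD over 3 libraries and points are libraries, and H2A and H4 are the tallest bars in both tables, at 49.4 and 40.2 TPM in the gene table.

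By cluster, most members lie in Hist1 but its genes were not the highest. Of 48 Hist1 genes tested 11 were above 1 TPM, of 9 in Hist2 3, of 2 in Hist3 1 (Hist3h2a), and the single Hist4 gene did not pass, against 50.5% of all genes tested and 61.1% of coding genes. In the second table the counts were 12 of 49 for Hist1, 5 of 9 for Hist2 and 1 of 2 for Hist3, and Hist4h4 passed (limma adjusted p = 0.00204), against 57.1% of all genes tested and 65.1% of coding genes. Median mean levels were 0.663 TPM over the 54 Hist1 genes and 1.51 TPM over the 10 Hist2 genes. Hist3h2ba, the other Hist3 gene and an H2B gene, had 0, 0 and 0.73 TPM.

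Within Hist1, genes fell into 4 blocks when split at gaps over 100 kb. The first block (chromosome 13, 21715763 to 21837530) holds 18 genes and summed to 15.9, 39.4 and 28.0 TPM. The second (22035164 to 22043676) holds 5 genes and summed to 10.3, 9.14 and 11.8 TPM, and the third (23531050 to 23764406) holds 29 genes and summed to 24.1, 46.9 and 34.2 TPM. Replicate 1 was the lowest library in the blocks of 18 and 29 genes and not in the block of 5. The fourth block, the testis genes Hist1h2ba and Hist1h2aa, had 0 in each library, and 3 counts summed over the libraries would have given Hist1h2aa a mean of 0.473 TPM.

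**Figure D3:**
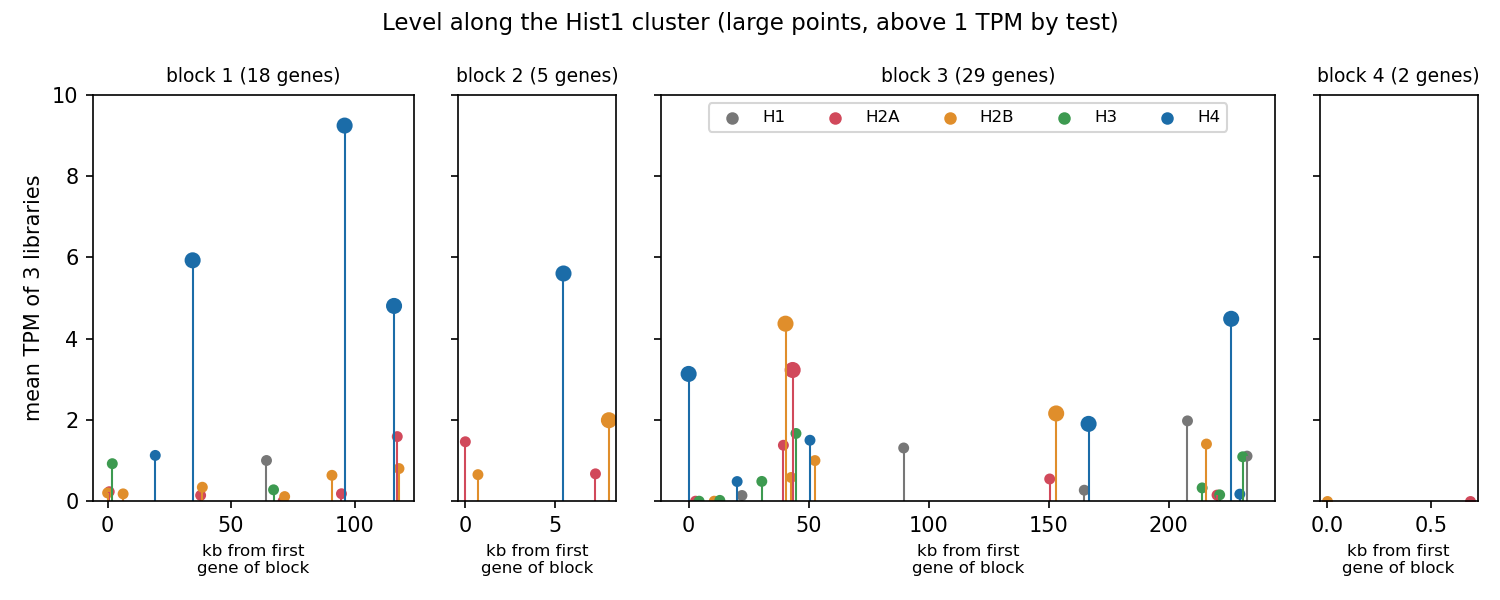
Mean TPM of each Hist1 gene against its distance in kb from the first gene of its block, coloured by class, with large points for genes above 1 TPM by the test. Tall points of H4 genes stand among low neighbours, the highest being Hist1h4m at 9.25 TPM in the first block.

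Many H2A and H2B genes lie head to head and share the stretch between their starts. There were 13 such pairs of neighbouring members on opposite strands, 12 of H2A with H2B, with 175 to 659 bases between the starts (median 267). The levels of partners were often unequal. Hist2h2ac had 6.38, 10.5 and 9.91 TPM and its partner Hist2h2be 0.54, 1.06 and 1.19 TPM, so Hist2h2ac was higher in 3 of 3 libraries and 9.61 times as high by mean. In the second table the means were 7.74 and 1.81 TPM, which is 4.28 times, and Hist2h2be was above 1 TPM there (limma adjusted p = 0.00688). Hist2h2ac is annotated as 520 bases and Hist2h2be as 2620, and before division by length they had 21, 43 and 40.7 expected counts for Hist2h2ac against 14, 40 and 42 for Hist2h2be. Hist1h2ad had 1.70, 4.80 and 3.19 TPM and its partner Hist1h2bf 0.38, 1.05 and 0.32 TPM, 5.54 times apart by mean and 2.35 times in the second table. These rested on few expected counts, 6.55, 23.53 and 15.53 for Hist1h2ad and 1, 3.35 and 1.03 for Hist1h2bf. Of the 31-base stretches of Hist1h2bf 26.45% are found in no other gene. Hist1h2bg had 5.88, 3.49 and 3.74 TPM and its partner Hist1h2ae 0.28, 1.60 and 2.25 TPM. Their expected counts were 25.52, 19.63 and 20.78 for Hist1h2bg and 1.5, 11.22 and 15.35 for Hist1h2ae. In these 3 pairs the higher gene by mean was higher in every library. It was the H2A gene in the pairs of Hist2h2ac and Hist1h2ad, and the H2B gene in the pair of Hist1h2bg. Over the 12 pairs H2A was higher in 5 and H2B in 6. Hist1h2ah, at 1.46 TPM by mean against 0.653 for Hist1h2bk, was the lower in the second table, at 0.131 against 0.861 TPM. In the gene table the log2 mean levels of partners had Pearson r of 0.608 and Spearman rho of 0.606. That is a description of 12 points which share libraries and, between paralogs, reads. They include Hist1h2ba with Hist1h2aa, both at 0, and the pair of Hist1h2an, also at 0. Genes at 0 were placed at the added 0.1 TPM, which bears on both coefficients.

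The split of reads among members depended on the quantification. The second transcript table, made directly from the reads, was summed per gene. There, 19 of 61 members tested were above 1 TPM, against 57.1% of all genes tested and 65.1% of protein-coding genes tested. Of the 15 members above 1 TPM in the gene table, 14 passed in both, and Hist1h4c did not pass in the second (limma adjusted p = 0.285). Over the 67 members, 6 were more than 2 times higher in the gene table, 10 were more than 2 times lower in it, and 51 lay within 2 times, on the TPM + 0.1 scale. The log2 mean levels had Pearson r of 0.862 and Spearman rho of 0.820 over the 67 genes, which both tables took from the same reads.

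Among members with a mean of at least 10 expected counts, 5 differed most. Hist1h1d (H1.3) had 0.04, 0.30 and 0.08 TPM in the gene table and 1.35, 0.978 and 0.901 TPM in the second. Its counts were 3.06, 34.0 and 9.00 in the gene table and 155, 188 and 160 in the second, so the tables differed in reads assigned and not in length alone. Hist4h4, an H4 gene, had 0.28, 0.48 and 0.41 TPM in the gene table and 2.14, 2.10 and 2.30 TPM in the second. Both have annotated transcripts that run long past the stem-loop, as given above. Hist3h2a and Hist2h4 also run long past it, and their mean TPM lay within 2 times between the tables. The part of this trait in the differences was not tested.

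Hist1h2bq and Hist1h2br are H2B genes that share 100% and 99.8% of their stretches of 31 bases with each other. Hist1h2bq had 0.39, 0.81 and 0.71 TPM in the gene table and 1.74, 2.44 and 1.98 TPM in the second. Hist1h2br had 1.28, 1.13 and 0 TPM in the gene table and 0, 0.666 and 0.0219 TPM in the second. One was thus lower and the other higher by mean in the gene table. Hist2h2aa2 was the fifth, at 11.5, 18.3 and 9.39 TPM in the gene table and 5.25, 7.39 and 2.87 TPM in the second. Over all members the median share of 31-base stretches found in no other gene, on either strand, was 39.8%, and 41 of 67 had under 50%. The class medians were 96.2% for H1, 22.9% for H2A, 42.6% for H2B, 36.9% for H3 and 52.1% for H4.

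**Figure D4:**
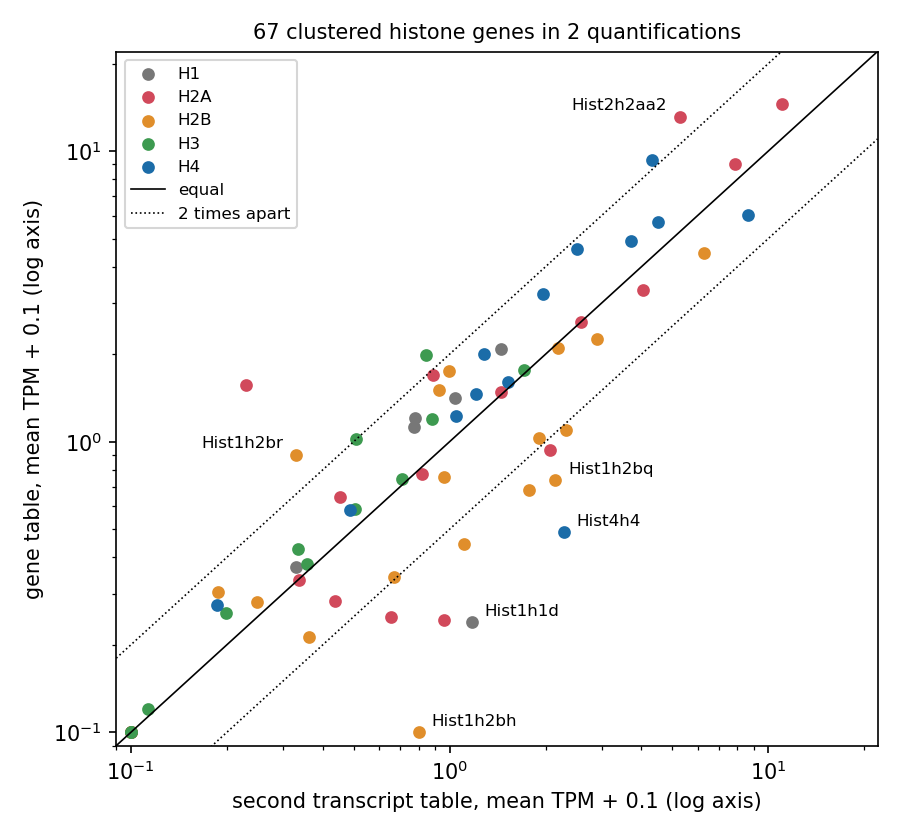
Mean TPM + 0.1 of the 67 members in the gene table against the second transcript table, both on log axes, coloured by class, with lines of equality and of 2 times. Hist1h1d, Hist4h4 and Hist1h2bq lie below the lower dotted line, and Hist1h2bh is at 0 in the gene table alone.

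In the near-identical pair the 381-base transcripts took 0 counts and longer ones took the reads. The 3 transcripts of Hist1h2bq have 381, 1254 and 2015 bases and took 0%, 22.1% and 77.9% of its expected counts summed over libraries. In Hist1h2br the libraries differed: all 14.3 counts of replicate 1 were in the 1256-base transcript, all 34.9 of replicate 2 in the 2197-base transcript, and replicate 3 had 0. The 381-base entries are coding sequence alone, and the longest entries are typed as subject to nonsense-mediated decay. Hist1h2be took 62.6% of its counts in a 2099-base transcript typed as noncoding, which was 88.8% in the second table.

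Between libraries the members that could be assessed had a larger median spread than coding genes. The 20 members kept by edgeR's filter on low counts, which are not all members, had a median biological coefficient of variation of 0.247 (quartiles 0.221 and 0.287). The value over 10850 protein-coding genes kept was 0.201 (quartiles 0.176 and 0.235). From the mean of the libraries their median log2 difference was -0.33 for replicate 1, 0.21 for replicate 2 and 0.10 for replicate 3, against -0.04, 0.03 and 0.02 for coding genes. In replicate 1, 15 of the 20 lay below their mean. Without replicate 2 the members' median was 0.197, over 15 members, and no value for coding genes was computed without that replicate. The members' counts are low, their level was not matched to that of the coding genes, and the cause was not tested. With 1 library per input amount, these libraries cannot be tested against each other.

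Hist1h1c, Hist1h1e and Hist1h2bc had the largest coefficients, 0.458, 0.371 and 0.337. Each was highest in replicate 2, by 1.15, 0.74 and 0.76 log2 units over its mean. Hist3h2a, Hist1h2ac and Hist1h4c had the smallest, 0.176, 0.204 and 0.205. Hist1h2ac had 0.61, 0.56 and 0.47 TPM, from 15, 19.9 and 15.6 expected counts over an annotated 2482 bases. The coefficients come from counts, and how level bears on them was not tested. By gene-table TPM, 35 members were highest in replicate 2, 14 in replicate 3 and 10 in replicate 1.

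**Figure D5:**
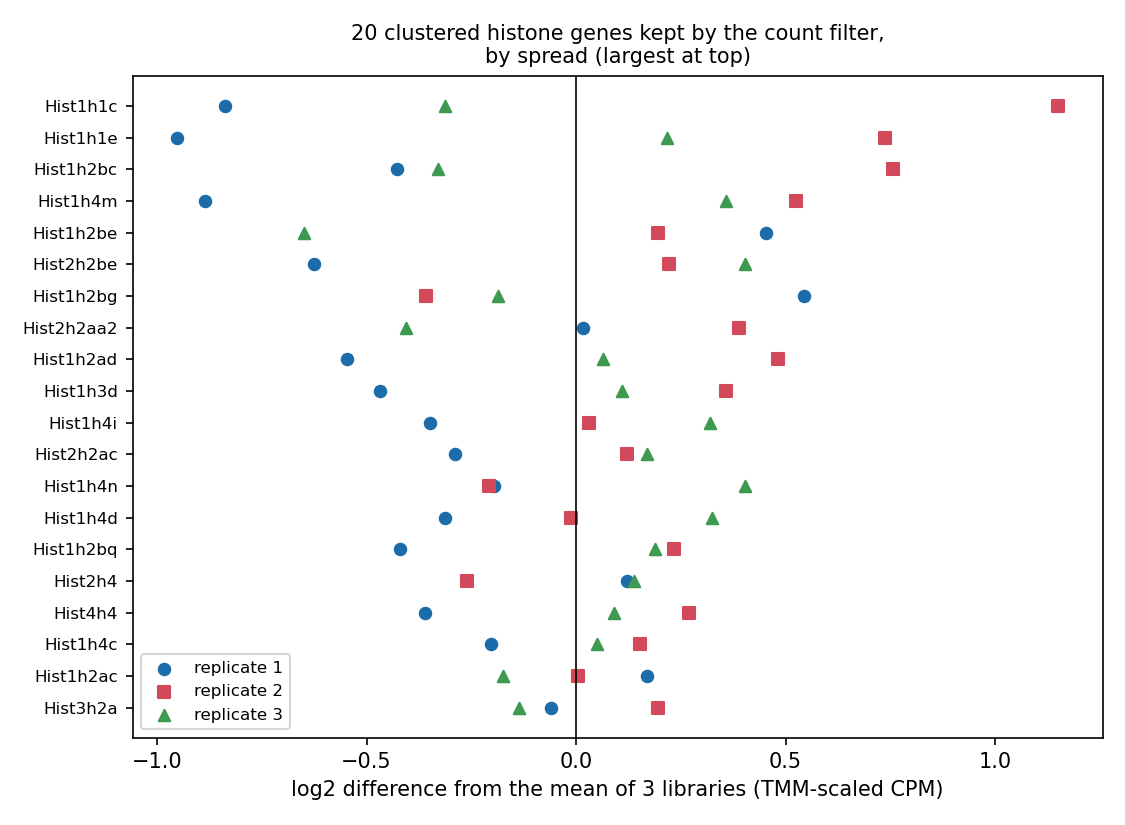
Log2 difference of each library from the mean of the 3 libraries, in TMM-scaled CPM, for the 20 members kept by the count filter, with the largest spread at the top. Points of replicate 1 lie left of 0 for 15 of the 20 genes, and Hist1h1c spans the widest range.

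Other genes of histone supply had higher medians than the members, at 4.98 TPM for non-clustered histones, 6.07 TPM for processing genes and 19.6 TPM for chaperones. These lists were chosen with earlier results of the data known, and their tested genes are all protein-coding, so their counts are read against the 61.1% of coding genes tested. Of 10 replacement and other non-clustered histone genes tested, 7 were above 1 TPM, a share near that of coding genes. H3f3b, which encodes H3.3, had 281, 237 and 353 TPM, and alone exceeded the sum of the members in each library. H2afy (macroH2A) had 81.5, 95.01 and 90.2 TPM and H3f3a, the second H3.3 gene, 46.1, 30.4 and 31.1 TPM. H2afx, which carries the stem-loop of the clustered genes, had 0.56, 0.73 and 0.65 TPM and did not pass.

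Of 16 genes for histone pre-mRNA processing and the histone locus tested, 14 passed, among them Srrt with 150, 178 and 156 TPM, Sympk with 24.9, 31.02 and 31.3 TPM and Cpsf3 with 23.5, 31.03 and 24.9 TPM. Srrt is a cap-binding partner, Sympk the scaffold and Cpsf3 the nuclease of the cleavage complex. Slbp, whose protein binds the stem-loop shown above, had 14.3, 22.3 and 20.5 TPM, and Npat 2.95, 4.08 and 3.98 TPM. Lsm11 and Zfp473, both of the U7 pathway, did not pass, with means of 0.287 and 0.183 TPM. They had 3.58 and 2.52 TPM in the second transcript table, where 16 of the list passed. Lsm10, also of that pathway, passed with 2.75, 4.17 and 2.11 TPM (limma adjusted p = 0.00264). Rnu7, the gene of the U7 RNA, was at 0 in both tables and was not tested, and a 0 does not show that this RNA was absent. Of 18 histone chaperone genes 17 passed, led by Atrx, Daxx and Ubn2, which act in H3.3 deposition, at 301, 112 and 58.6 TPM by mean. Asf1b, the chaperone form of dividing cells, had 0.18, 0.36 and 0.16 TPM and did not pass. Chaf1a, Chaf1b and Nasp of the same list did, at 2.75, 5.23 and 18.95 TPM by mean.

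Of 30 S phase and mitosis genes 21 passed, also near the coding share, with a median of 3.04 TPM, against 0.833 TPM for the 67 members. Tk1, a thymidine kinase gene, had 44.3, 41.8 and 47.0 TPM and Pcna, the replication clamp gene, 23.7, 21.8 and 23.6 TPM. Mki67, a marker of cycling cells, had 43.4, 10.4 and 43.3 TPM. It was lowest in replicate 2, as were Tk1, Pcna, Top2a and Cdk1, while most of the list was not below its mean there. In replicate 2 the list's median log2 difference from the mean of the libraries was 0.14, and 9 of the 27 genes kept by the count filter lay below their mean, against 0.21 for the members. The lists' median log2 differences in replicate 1 were -0.10 for S phase and mitosis genes, -0.12 for processing genes, -0.12 for chaperones and -0.18 for the non-clustered histones, and -0.33 for the members. Their part in the members' levels was not tested.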

How the data were processed

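The authors deposited 1 gene and 2 transcript tables per library. Per the file headers, the gene and first transcript tables give expected counts and TPM in the layout RSEM writes, and the second gives estimated counts and TPM in the layout kallisto writes. The deposited text beside each sample names mm10 and annotation M21 and derives the first 2 from transcriptome alignments. The aligner, tool versions and strand setting were not given in the sources used here. Bounds deposited beside TPM, per the file headers, describe read assignment within 1 library.

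Members and lists were chosen with earlier results of these data known. Members were named by rule: the 3 highest per class, Hist2 to Hist4 genes of at least 1 TPM, genes at 0, the extremes of spread, the 5 that differ most between tables, and the 3 highest of each other list. Head-to-head partners, Slbp, Npat and other genes outside it were named after their values were seen. Rows naming no gene held 1.05%, 0.425% and 0.401% of counts and were left out. A count of 0 allows 3 counts, or 0.242, 0.164 and 0.165 CPM (counting error only).

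limma 3.58.1 (R 4.3.3, intercept only, trended variance) tested log2(TPM + 0.1), which understates low genes, with Benjamini-Hochberg adjustment. In simulated data over 22395 genes with a coefficient of variation of 0.3, 0% of 50 genes at 1 TPM, 74% at 2 TPM and 98% at 4 TPM were called. Those genes were drawn at random over all genes but the shortest, with no reads shared between copies. The shares called therefore need not hold for the members. Spread came from edgeR 4.0.16 (TMM, filterByExpr, tagwise dispersion) on rounded expected counts, with DESeq2 1.42.0 as an alternative. Protein identity was not analysed here. Sequences came from the M21 transcripts and RefSeq promoters. Alternatives were pseudocounts, filters, floors, tables, CPM, denominators and leaving out each replicate. Leaving out Hist3h2a was chosen after seeing the data.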

Additional observations from a re-analysis of the deposited data

Results flagged for a closer look

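Hist1h2bh, an H2B gene, had 0 expected counts in all 3 libraries of the gene table. The second transcript table gave it 72.3 estimated counts over the 3 libraries, as 11.2, 31 and 30.2, and 0.478, 0.791 and 0.840 TPM. That is above the 3 counts that a count of 0 allows. Of its stretches of 31 bases 70.8% are found in no other gene. The other 6 members at 0 in the gene table were also at 0 in the second. The reason for the difference was not tested.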

How the results depend on the processing

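Of 60 members tested, 15 were above 1 TPM, and the count was 14 to 15 with other pseudocounts, a filter at 0.1 TPM or the first transcript table, 12 to 15 without 1 replicate, and 19 in the second table. It was 7 of 67 with no filter and 3 against 5 TPM, all among the 15. Of all genes, 19.5% passed with no filter and 30.5% against 5 TPM, and of coding genes 38.4% and 40.6%. Of all genes tested, 49.6% to 61.9% passed with the other pseudocounts, the filter at 0.1 TPM or the first transcript table. Without 1 replicate 50.2% to 51.8% did. On the CPM scale against 1 CPM, which does not divide by length, the count of members was 8, of which 4 were among the 15. The other 11 were lost, and Hist1h1c, Hist1h2be, Hist2h2be and Hist2h4 were gained. There 51.4% of all genes tested and 65.4% of coding genes passed. Against 5 TPM the values turned negative for Hist1h2bc (-1.31), Hist1h2bg (-0.23), Hist1h2bj (-1.31), Hist1h4c (-1.37) and Hist2h2aa1 (-1.08), as a higher floor makes them. On the CPM scale they did for Hist1h2bj (-1.21), Hist1h4c (-0.10), Hist1h4k (-1.01) and Hist2h2aa1 (-0.49). In the second table Hist1h4c was lost, and Hist1h2bq (0.95), Hist4h4 (1.05), Hist1h2be (1.07), Hist2h2be (0.79) and Hist2h2ab (0.84) were gained, and the cause was not tested. Rescaled over protein-coding genes, the mean sums were 386 TPM for all classes, 18.9 for H1, 158 for H2A, 55.4 for H2B, 24.3 for H3 and 129 for H4. In CPM they were 63.0 for all classes, 33.0 for H2A, 9.85 for H2B, 3.07 for H3 and 11.1 for H4. The H2B sum was 24.4 TPM in the second table, and the H2A sum without Hist3h2a 34.9 TPM. The median coefficient of variation was 0.417 with no filter over 60 members and 0.384 with DESeq2. It was 0.234 without replicate 1, 0.197 without replicate 2 and 0.281 without replicate 3, over 24, 15 and 16 members. No value for coding genes was computed under these settings. The mean share of counts was 0.00991% of protein-coding counts, and 0.00622% of them without Hist3h2a. Over all annotated genes the mean share without Hist3h2a was 0.00395%. No paired analysis was possible because there was 1 group only. Depth limits most members: 25 of 67 had a mean of at least 10 expected counts.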
